A study of Mus musculus with 10 samples.

Results

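Pancreatic islets of mice labelled as β-cell knockouts of Grk5 were compared with islets of those floxed controls in which the estrogen receptor gene Esr1 was close to silent. The comparison took in 8 of the 10 libraries of the series, 5 knockouts and 3 controls. All mice were C57BL/6 and 18 weeks old, and all carried Grk5 alleles flanked by loxP sites (Grk5 flox/flox). The knockouts also carried Pdx1-CreER, a tamoxifen-inducible Cre recombinase under the promoter of Pdx1, which the labels do not list for the controls. Tamoxifen dosing, the sex of the animals and whether each library came from a separate mouse are not given in the sources used here, so each p-value below reflects only how these libraries vary, which may be technical. Pdx1 is active in β cells and in the pancreatic progenitors, and whole islets also hold cells in which this driver is not active. The names control and knockout refer to labels.

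The controls were chosen by their own Esr1 values, so Esr1 is described and was not tested. Esr1 encodes estrogen receptor α, and CreER joins Cre to a ligand-binding domain of that receptor. Its normalized count was 2.0, 10.5 and 0.0 in controls 1, 3 and 4, which were kept because they lay under 15. It was 2495 in control 2 and 773.5 in control 5, which were left out. The 5 knockouts had 2057.8, 1516.7, 2467.7, 3028.4 and 3176.8. The highest control kept (10.5) and the lowest control left out (773.5) were thus far apart. Genotype label and Esr1 level split the libraries compared in the same way. Their parts in any difference described below cannot be told apart. Control 2 lay within the range of the knockouts, and control 5 lay between the kept controls and the lowest knockout. Whether these reads came from the Esr1 gene, on chromosome 10 in GRCm38, or from a CreER transgene cannot be read from whole-gene values.

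Islets are clusters of hormone-secreting cells, mostly insulin-secreting β cells, set in an exocrine tissue of acinar cells that secrete digestive enzymes. The product of Grk5 is a receptor kinase: it tags active G protein-coupled receptors with phosphate and can also enter the nucleus, where class IIa histone deacetylases such as HDAC5 are among its substrates. Phosphorylated class IIa deacetylases leave the nucleus and release MEF2 transcription factors, which act on activity-induced genes. The title of the series names GRK5, HDAC5 and the physiological proliferation of β cells.

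Values are the authors' normalized counts, which put the libraries on a common scale. Genes were tested when at least 3 of the 8 libraries held a value of 10 or more, which left 12800. Differences below are knockout minus control on a log2(value + 8) scale, so those of low genes are understated, and tests are by limma. If the commonest low value of a library stands for 1 read, the 8 libraries held about 2072840 (knockout 1) to 10950982 reads (knockout 3). Knockout 1 also had the fewest genes above 0, 10222, and the lowest median correlation (0.734) with the rest. In control 3, 11.9% of the values lay midway between multiples of that low value, against 1.20% to 1.44% in the other 7 libraries compared, so its depth may be underestimated. Ins1 and Ins2 together made up 12.3% to 17.8% of each library, which shows β-cell RNA in all 8. Genes that every cell uses, such as the ribosomal protein gene Rpl10a, are listed at 0 in single libraries of this table, so a 0 below means only that a gene is listed at 0.

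The targeted gene was examined first. Grk5, on chromosome 19 from 60889749 to 61095968 in GRCm38, had 197.0, 386.9 and 331.8 normalized counts in controls 1, 3 and 4. Its values in knockouts 1 to 5 were 269.8, 129.9, 94.4, 207.0 and 105.5. Knockouts 2, 3 and 5 lay below every control compared, whereas knockouts 1 and 4 lay above control 1, so the groups overlapped. Its mean was 305 ± 97.7 (SD, n = 3) in controls and 161 ± 74.9 (SD, n = 5) in knockouts, and the log2 difference was -0.94 ± 0.48 (SE), with 95% limits of -1.95 to 0.06. The adjusted p by limma was 0.999 and the unadjusted p 0.0643. An exact 2-sided permutation test over the libraries gave p = 0.107, where 56 arrangements allow no p below 0.0357. The controls left out had 165.0 and 127.9, within the range of the knockouts. With all 5 controls the log2 difference was -0.55. The deleted exons and the cell types that lost Grk5 were not analysed here.

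**Figure D1:**
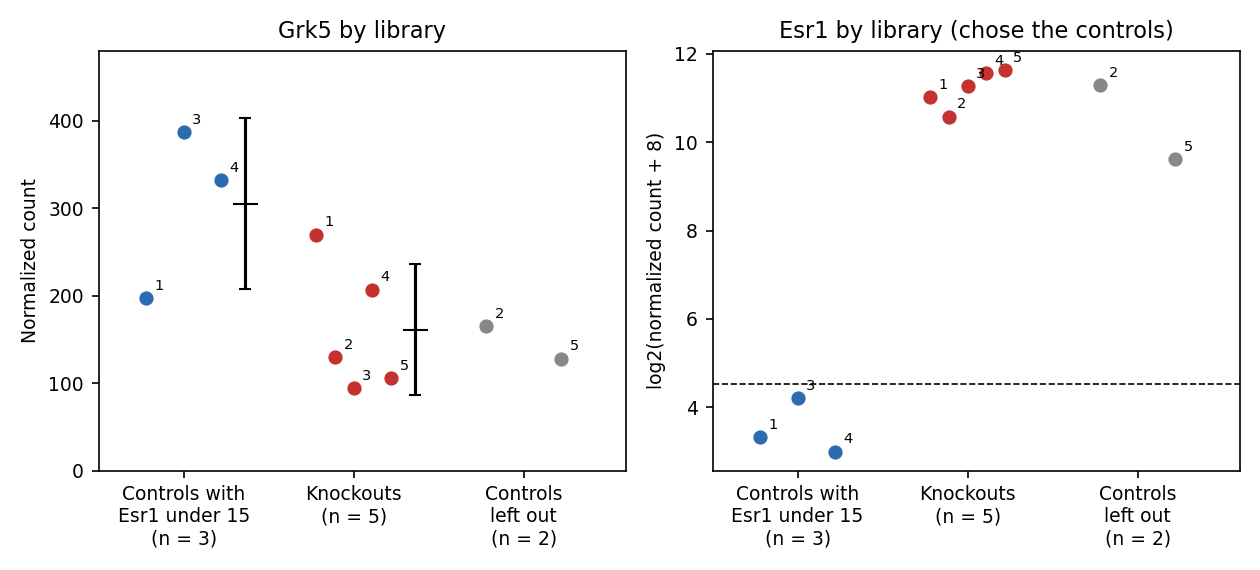
Left, normalized count of Grk5 in each library; right, log2(normalized count + 8) of Esr1, with the dashed line at the limit of 15 that chose the controls. Points are libraries numbered by replicate, bars on the left show mean ± SD; Grk5 in knockouts 1 and 4 (269.8 and 207.0) lies above control 1 (197.0), and the controls left out lie at 165.0 and 127.9.

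No gene separated the groups past the adjusted threshold. With limma, 0 of 12800 genes (0.00%) reached an adjusted p under 0.05, the lowest being 0.215. By unadjusted p under 0.05, the knockouts had 244 higher genes (1.91% of those tested) and 303 lower genes (2.37%). Their total of 547 (4.27%) compares with 640 that chance would give at this threshold. With library totals made equal the split was 282 higher against 226 lower. The groups did not overlap for 179 genes that were higher in the knockouts (1.40%) and 261 that were lower (2.04%). The median difference over all genes was -0.04. The genes and lists below are therefore described by their values, counts and unadjusted p, and no single gene among them passed in this fit.

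**Figure D2:**
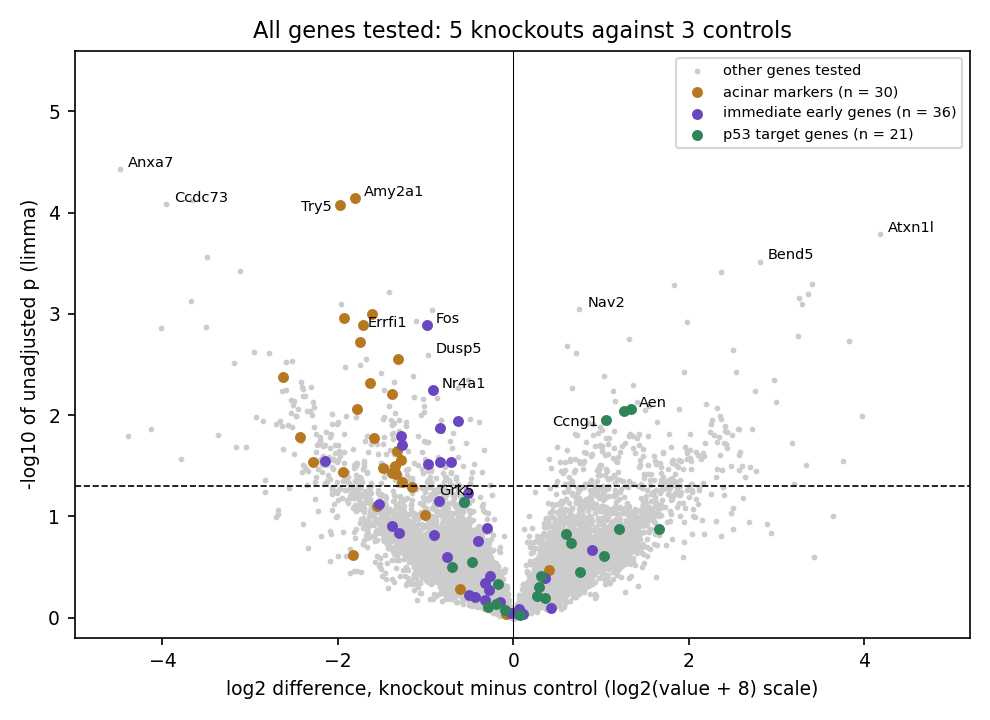
Each point is 1 of the 12800 genes tested: log2 difference between 5 knockouts and 3 controls against -log10 of the unadjusted p by limma, with the dashed line at 0.05. Acinar markers (30 tested) and immediate early genes (36 tested) lie mostly to the left, 28 lower in each list, and 14 of the 21 p53 target genes lie to the right.

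Most genes of acinar cells were lower in the knockouts, with the lowest median of the 41 lists. Of 33 acinar markers 30 were tested, of which 28 were lower and 2 higher; their median difference was -1.52 against -0.04 over all genes. At an unadjusted p under 0.05 there were 22 lower and 0 higher, where 2.37% of all genes were called lower, and for 9 the groups did not overlap (2.04% of all genes). In bulk tissue, fewer cells of a type and less RNA per cell cannot be told apart. The summed acinar markers came to 138477, 115403 and 347251 in controls 1, 3 and 4, and to 41437, 58102, 106243, 53166 and 56389 in knockouts 1 to 5. Every control compared lay above every knockout in this sum, although control 3 and knockout 3 were close. In the mean log2 value over the markers, which weighs each gene alike, knockout 3 (10.29) lay just above control 3 (10.20), so the groups overlapped by that measure. As a share of the library, acinar markers took 1.94% to 5.11% in the controls and 0.563% to 1.84% in the knockouts.

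Amy2a1, a pancreatic amylase gene, had 12657, 11829 and 30436 in the controls and 4604, 4260, 6590, 4388 and 4291 in the knockouts. All 5 knockouts were below the lowest control, with control 4 highest by far, and the log2 difference was -1.80 ± 0.29 (SE, adjusted p = 0.215 by limma). The trypsinogen gene Try5 had 7789, 5597 and 10153 in the controls and 1221, 2578, 3372, 2098 and 1217 in the knockouts, also without overlap, with a log2 difference of -1.97 ± 0.34 (SE, adjusted p = 0.215 by limma). Among other pancreatic enzymes, the differences were -2.43 for the amylase Amy2a5, -1.93 for Amy2b, -1.71 for the trypsinogen Try4, -1.63 for the elastase Cela3b and -1.61 for the carboxypeptidase Cpb1. Serpini2, a serine protease inhibitor gene of the pancreas that was on no list, went the same way, with 634 ± 473 (SD, n = 3) against 134 ± 35.8 (SD, n = 5). Reg1, encoding a secreted acinar protein, had 1229, 1637 and 1749 in the controls and 124.2, 572.8, 633.3, 49.4 and 316.5 in the knockouts. Many of these enzymes belong to families of near-identical copies, such as the amylases and trypsinogens, so the division of reads among them is uncertain.

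The acinar difference depended on which controls were compared. Control 2, left out for its Esr1, had the lowest sum of all 10 libraries, 26754, whereas control 5, left out as well, had 158223 and sat among the controls kept. With all 5 controls, 28 of the 30 markers still had lower means, but the median of acinar markers was -0.94 and 2 markers, in place of 22, were lower at an unadjusted p under 0.05. Without control 4 that count was 14 and the median of acinar markers -0.99, with 27 of 30 lower. Without knockout 4 the count was also 14, with 29 of 30 lower and a median of -1.37.

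A promoter is shown because these genes were lower together. Acinar enzyme genes are driven by the transcription factor PTF1, which binds an E-box, and the form CACCTG was searched on both strands in the 250 bases before the first start that RefSeq lists for each gene (GRCm38.p6). It was present in 14 of the 24 acinar marker promoters found in the table (58.3%), against 15.5% of the promoters of all genes tested that were found and 17.1% of all promoters. The window of Amy2a1, the first acinar gene described above, held no match. The promoter of Cpb1 (chr3:20275734-20275983, minus strand) is printed with its match in capitals, which reads as the reverse complement.
Cpb1: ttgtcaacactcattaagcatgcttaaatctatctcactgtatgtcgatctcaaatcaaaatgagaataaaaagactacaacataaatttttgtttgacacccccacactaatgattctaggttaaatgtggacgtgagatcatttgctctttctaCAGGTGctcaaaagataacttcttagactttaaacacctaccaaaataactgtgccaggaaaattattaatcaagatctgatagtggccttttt
A match describes the letters of the window and is not a binding site. The match in Cpb1 lies 94 to 89 bases before the start.

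Immediate early genes, which answer calcium, growth factors and stress within minutes, mostly had lower means in the knockouts. All 36 were tested, of which 28 were lower and 8 higher, with a median difference of -0.51 against -0.04 over all genes. At an unadjusted p under 0.05 there were 10 lower and 0 higher, where 2.37% of all genes were called lower. Fos, a subunit of the AP-1 transcription factor, had 2702, 4249 and 3026 in controls 1, 3 and 4 and 1319, 1020, 2067, 2167 and 1977 in knockouts 1 to 5. Every knockout lay below the lowest control compared, and the log2 difference was -0.99 ± 0.26 (SE, unadjusted p = 0.00130, adjusted p = 0.635 by limma). Left-out control 2 had 714.8 for Fos, below every knockout, and control 5 had 3429, within the range of the controls compared. With all 5 controls the log2 difference of Fos was -0.57. Nr4a1, an orphan nuclear receptor induced by calcium and by MEF2 factors, had 1285, 2140 and 2107 against 599.9, 803.3, 967.1, 1461 and 1115. Knockout 4 lay above control 1, so these groups overlapped, with a log2 difference of -0.92 ± 0.29 (SE). Fosb, another AP-1 subunit, was 6410 ± 1620 (SD, n = 3) against 4150 ± 1110 (SD, n = 5), and the stress-induced Atf3 was 1990 ± 435 against 965 ± 617.

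Besides Fos, the groups did not overlap for Srf, nor for Junb and Ier2, which were named after their values were seen. These were 4 of the 36 members, where 2.04% of all genes were lower without overlap. All members named after their values were seen were lower ones. The list also had 8 higher members, with differences of at most 0.90. Srf, the serum response factor that drives many genes of the list, had 1150, 874.8 and 926.4 in the controls and 702.8, 708.3, 580.6, 698.7 and 732.3 in the knockouts. The knockouts spanned a narrow range below all 3 controls, at a log2 difference of -0.51 ± 0.25 (SE, unadjusted p = 0.0586 by limma). Junb was 1580 ± 378 (SD, n = 3) against 917 ± 336 (SD, n = 5). Egr1 and the phosphatase gene Dusp1, also chosen after their values were seen, had log2 differences of -0.72 and -1.29, with overlapping groups.

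The feedback genes of the ERK pathway, which dampen growth factor signalling after it is switched on, did not move as one. Of 12 tested, 9 were lower and 3 higher. The median of ERK feedback genes was -0.58, and 2 were lower at an unadjusted p under 0.05 (2.37% of all genes). Those were Dusp5 and Errfi1. That median was -0.22 with a pseudocount of 32, -0.25 with the acinar covariate, -0.35 with library quality weights, -0.32 without knockout 1 and -0.30 without knockout 4. Dusp5, a nuclear phosphatase that acts on ERK, had 902.9, 1267 and 1124 in the controls and 457.9, 442.9, 620.7, 578.7 and 684.8 in the knockouts. Errfi1, which inhibits the EGF receptor, had 1193, 1910 and 1382 against 439.1, 637.5, 837.4, 651.6 and 905.3. Neither gene overlapped between the groups, at log2 differences of -0.98 ± 0.28 and -1.11 ± 0.29 (SE). Dusp4, another ERK phosphatase gene, lay on the other side at 154 ± 54.6 (SD, n = 3) against 307 ± 124 (SD, n = 5), a log2 difference of 0.93 ± 0.45 (SE, unadjusted p = 0.0538 by limma).

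The mean log2 value of the immediate early genes was 8.18, 8.96 and 8.78 in controls 1, 3 and 4, and 7.56, 7.86, 8.31, 8.65 and 8.13 in knockouts 1 to 5. Knockouts 3 and 4 lay above control 1, so the list as a whole overlapped between the groups. Acinar markers moved the same way, as given above, and their part in this result was examined only with the acinar mean as a covariate. That mean was 10.20 to 11.78 in the controls and 8.80 to 10.29 in the knockouts. It nearly followed the groups, so this fit cannot tell acinar content from genotype. With this covariate, 117 genes in place of 303 were lower at an unadjusted p under 0.05 over all genes tested. Among the immediate early genes, 26 of 36 were lower, the median was -0.39, and 1 gene in place of 10 was lower at that level. Without control 3 there were 3 such genes, with 28 of 36 lower, and without control 4 also 3, with 29 of 36 lower. With all 5 controls there were 8, with 29 of 36 lower. Without control 1 there were 11, with 33 of 36 lower, and the median of immediate early genes was -0.84. Left-out control 2 lay at 8.21 and control 5 at 8.85.

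**Figure D3:**
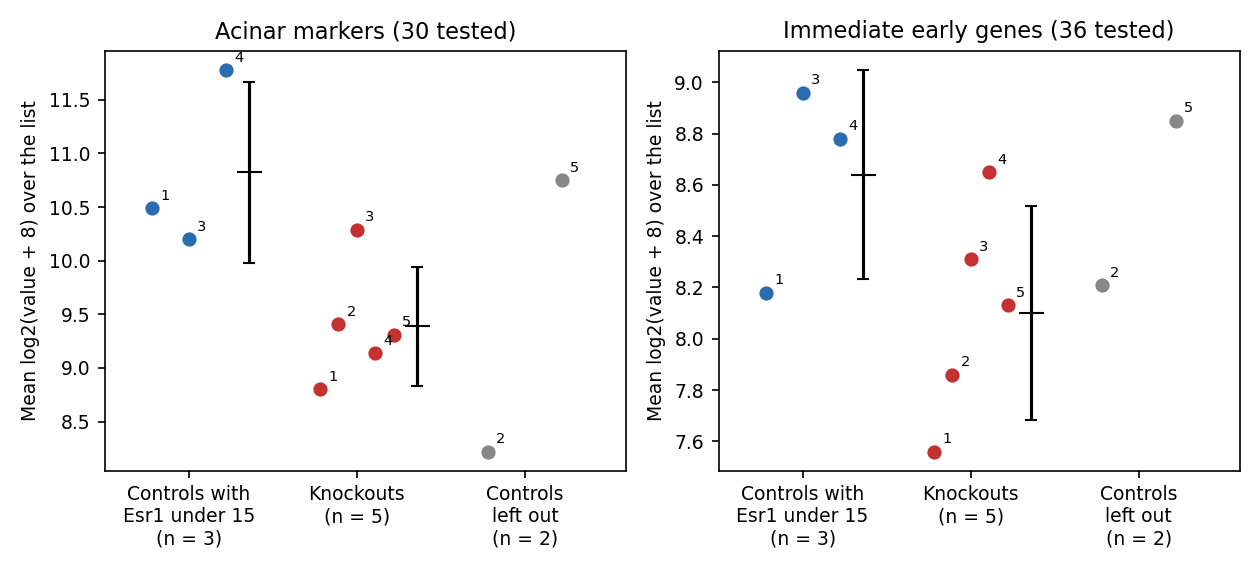
Mean log2(value + 8) over the tested acinar markers (left) and immediate early genes (right) in each library; points are libraries numbered by replicate, and bars show mean ± SD of the 3 compared controls and 5 knockouts. Acinar values run from 8.22 in left-out control 2 to 11.78 in control 4, and immediate early genes run from 7.56 in knockout 1 to 8.96 in control 3.

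The promoters of Srf and Dusp5 are printed because neither gene overlapped between the groups and both hold the CArG box, the element that serum response factor binds. It was searched on both strands of the same 250-base window, as was the Egr element GCGGGGGCG, and capitals mark both. Srf lies at chr17:46556163-46556412 (minus strand) and Dusp5 at chr19:53528895-53529144 (plus strand) in GRCm38.p6.
Srf: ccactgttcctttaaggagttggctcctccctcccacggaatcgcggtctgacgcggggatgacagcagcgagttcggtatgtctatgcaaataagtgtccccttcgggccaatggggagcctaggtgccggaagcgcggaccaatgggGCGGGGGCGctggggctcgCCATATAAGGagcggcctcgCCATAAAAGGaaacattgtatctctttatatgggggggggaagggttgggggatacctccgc
Dusp5: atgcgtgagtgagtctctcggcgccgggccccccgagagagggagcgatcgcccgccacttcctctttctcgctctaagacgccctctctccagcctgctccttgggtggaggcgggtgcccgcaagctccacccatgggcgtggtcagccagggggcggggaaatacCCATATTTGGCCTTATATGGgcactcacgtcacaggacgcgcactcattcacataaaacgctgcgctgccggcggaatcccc
Both windows hold a pair of CArG boxes, the first 82 to 73 bases before the start in each. In Srf the second lies 62 to 53 bases before the start, after an Egr element at 101 to 93, and in Dusp5 the pair is adjacent, with the second at 72 to 63. A CArG box was present in 1.13% of the promoters of genes tested, in 2 of 25 immediate early promoters (Srf and Zfp36) and in 1 of 9 ERK feedback promoters. The windows of Fos, Nr4a1 and Fosb held none, although Fos did not overlap between the groups either. The Egr element was present in 7 of the 25 immediate early promoters (28%), against 4.90% of the promoters of genes tested. The cyclic AMP response element TGACGTCA was in 3 of the 25 and in 2.83% of those of genes tested, and the AP-1 site TGANTCA in 0 of the 25 and in 4.35%. In the printed windows no match overlapped another. A window without a match says only that these letters are not in it.

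Among genes of the β cell itself, the insulin genes were level while several members of the list of glucose sensing and triggering genes were lower. Ins2 differed by -0.06 ± 0.11 (SE) and Ins1 by -0.11 ± 0.07 on the log2 scale, with 95% limits of -0.26 to 0.05 for Ins1. Ins2 was 593607 to 717153 in the controls and 588745 to 803858 in the knockouts, a range that knockout 5 extended upward. Glucagon (Gcg) differed by 0.03 ± 0.13, with a direction that turned in 4 of the alternative analyses. Of the 16 genes on the glucose sensing and triggering list, all tested, 14 were lower and 2 higher. Their differences ran from -0.81 to 2.36, with a median of -0.31. Summed over the list, every control compared (32323 to 32509) lay above every knockout (24698 to 27247). This separation depended on the controls compared: left-out control 2 (26122) lay within the range of the knockouts, and control 5 (30919) lay between the groups. The mean log2 value of the list was 9.20, 9.91 and 9.43 in controls 1, 3 and 4. It was 8.89 to 9.81 in the knockouts, so by that measure the groups overlapped. Taken singly, the groups did not overlap for 4 lower genes (2.04% of all genes). Those 4 were Slc2a2, Ero1lb, Ucn3 and Slc30a8, the last named after its values were seen. By the functions given below, only Slc2a2 of them handles glucose, so the list is wider than its name.

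Slc2a2, the glucose transporter of the mouse β cell, had 2861, 3064 and 3109 in the controls and 2787, 2561, 1719, 1708 and 1824 in the knockouts. Knockouts 3, 4 and 5 were well below the controls, while knockout 1 was just below control 1, and the log2 difference was -0.54 ± 0.21 (SE, unadjusted p = 0.0189 by limma). Ero1lb, an oxidase that helps proinsulin fold, had 6008, 7039 and 6603 against 5477, 4613, 5231, 4498 and 5130, a log2 difference of -0.39 ± 0.14 (SE, unadjusted p = 0.0116 by limma). Ucn3, a peptide hormone of mature β cells, was 2130 ± 225 (SD, n = 3) against 1670 ± 108 (SD, n = 5), and the zinc transporter Slc30a8 was 3800 ± 266 against 3120 ± 322. The GLP-1 receptor gene Glp1r was 5170 ± 1080 against 4180 ± 699, with overlapping groups. Left-out control 2 had 3952 for Ero1lb and 1382 for Ucn3, below every knockout, whereas control 5 had 5990 and 2051, above every knockout. For Slc2a2 and Slc30a8, control 2 had 2427 and 2991, within the range of the knockouts, and control 5 had 3153 and 3716, above every knockout.

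The β-cell transcription factors had 12 of 18 members lower, with a median of -0.18 and 0 members at an unadjusted p under 0.05. Pdx1, which governs β-cell identity and whose promoter drives the Cre, was 759 ± 209 (SD, n = 3) against 661 ± 190 (SD, n = 5), and Nkx6-1 differed by -0.28 ± 0.21 (SE). Pdx1 turned to 0.02 with the acinar covariate. Genes of insulin processing and exocytosis lay on the other side, with 16 of 24 higher and a median of 0.10. The exocytosis protein gene Snap25 differed by 0.62 ± 0.29 (SE, unadjusted p = 0.0475 by limma), or 0.06 with the acinar covariate. Chgb, a granin of secretory granules, had 16399, 13907 and 15704 in the controls and 16946, 17781, 17658, 17583 and 16495 in the knockouts. Every knockout was above every control for Chgb, by a log2 difference of 0.18 ± 0.10 (SE, unadjusted p = 0.0984 by limma). Scg2, another granin gene, differed by 0.24 ± 0.12 (SE), with overlapping groups.

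The alpha cell markers did not shift as a list, with 6 of 11 higher and a median of 0.03, and Ttr and Gc were the members higher at an unadjusted p under 0.05, where 1.91% of all genes were. Ttr, the thyroid hormone carrier transthyretin, had 7497, 5556 and 5670 in the controls and 8587, 7004, 9670, 11815 and 10701 in the knockouts. Knockout 2 lay below control 1 and the other 4 knockouts lay above all controls, with a log2 difference of 0.60 ± 0.17 (SE, unadjusted p = 0.00208 by limma). Gc, the vitamin D-binding protein, was 374 ± 31.1 (SD, n = 3) against 733 ± 202 (SD, n = 5). Glucagon, the defining gene of alpha cells, had overlapping groups, as given above.

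Targets of p53, the transcription factor that answers DNA damage, tended to be higher. Of 25 listed genes 21 were tested, of which 14 were higher and 7 lower. Their median was 0.31, and 3 were higher at an unadjusted p under 0.05 (1.91% of all genes were called higher). Those were Aen, Ercc5 and Ccng1. In mean log2 value over the list, knockouts 1 and 2 (7.05 and 7.12) lay below control 3 (7.24). The other knockouts lay above every control compared, so the groups overlapped by that measure. Aen, a nuclease induced in apoptosis, had 88.4, 188.1 and 120.4 in the controls and 347.0, 190.0, 465.2, 249.9 and 513.1 in the knockouts. Ercc5, a nuclease of nucleotide excision repair, had 109.9, 86.7 and 159.1 against 271.4, 329.5, 195.9, 277.4 and 399.4. For both genes all knockouts lay above all controls compared, at log2 differences of 1.33 ± 0.45 and 1.26 ± 0.43 (SE). Left-out control 2 (70.1 for Aen and 49.9 for Ercc5) lay below every library compared, and control 5 (283.7 and 343.3) lay within the range of the knockouts. Ccng1, cyclin G1, had 198.5, 602.6 and 649.8 against 865.4, 623.4, 818.7, 1228 and 1086. Control 1 stood low for Ccng1, and the difference of 1.06 became 0.52 without it. The cell cycle inhibitor gene Cdkn1a, the best-known target of the list, was 169 ± 71.9 (SD, n = 3) against 272 ± 97.6 (SD, n = 5), with an unadjusted p of 0.185 by limma.

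Proliferation genes, which the title of the series puts at issue, were too low in these libraries for a clear answer. Of 40 genes of S phase and mitosis 24 were tested, with 15 higher, 9 lower and a median of 0.33. That median was -0.06 without knockout 5. Mki67, a marker of cycling cells, had 159.6, 11.5 and 181.1 in the controls and 578.6, 159.3, 139.2, 178.8 and 11.6 in the knockouts, so that control 3 and knockout 5 were both low and knockout 1 high. Mcm4, part of the helicase that opens replication origins, was the only member of the 24 at an unadjusted p under 0.05, a share near the 4.27% of all genes, with 207.0, 74.0 and 99.3 against 0.0, 16.8, 55.9, 21.2 and 73.9. The G1 kinase gene Cdk6 had 56.7, 52.5 and 37.1 against 0.0, 2.7, 32.4, 11.3 and 1.0, which do not overlap. Ccnd2, the main D cyclin of the β cell, was 5650 ± 502 (SD, n = 3) against 5260 ± 411 (SD, n = 5), a log2 difference of -0.10 ± 0.14 (SE).

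Hdac5, the deacetylase named in the title, differed by less than the spread between libraries. It was 723 ± 102 (SD, n = 3) in the controls and 745 ± 206 (SD, n = 5) in the knockouts, a log2 difference of 0.01 ± 0.29 (SE). In the class IIa deacetylase and MEF2 list, 4 of 6 tested genes were higher, 2 were lower and 0 had an unadjusted p under 0.05, with Hdac4 at 0.70 ± 0.42, Hdac7 at 0.69 ± 0.62 and Mef2d at -0.08 ± 0.31. Left-out control 5 had 1357 for Hdac5 and 884.8 for Hdac4, above all 8 libraries compared for both genes. Among 14 calmodulin, CaMK and protein kinase D genes, which send calcium signals to these deacetylases, the calmodulin gene Calm2 was the only one at an unadjusted p under 0.05 (4.27% of all genes). Calm2 was 1000 ± 264 (SD, n = 3) against 1490 ± 272 (SD, n = 5), a log2 difference of 0.58 ± 0.25 (SE). The GRK and arrestin genes had 6 of 9 higher and a median of 0.06, with Grk5 the lowest of them.

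Most lipid synthesis genes were lower, with a small median difference. Of 25 genes of cholesterol and fatty acid synthesis, all tested, 22 were lower and 3 higher. Their median was -0.27, and their differences ran from -1.27 to 1.22. At an unadjusted p under 0.05 by limma, 1 was lower and 1 higher (2.37% and 1.91% of all genes). The groups did not overlap for 2 lower members and 1 higher member (2.04% and 1.40% of all genes). Summed over the list the groups overlapped, at 15948 to 21344 in the controls and 14119 to 17141 in the knockouts. Acaca, the first committed enzyme of fatty acid synthesis, was among the higher genes, with 240.1, 337.3 and 187.1 against 355.6, 970.0, 537.9, 357.1 and 1068 and no overlap, a log2 difference of 1.22 ± 0.42 (SE). Soat1, which esterifies cholesterol for storage and is on no list, was 208 ± 51.8 (SD, n = 3) against 442 ± 171 (SD, n = 5).

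**Figure D4:**
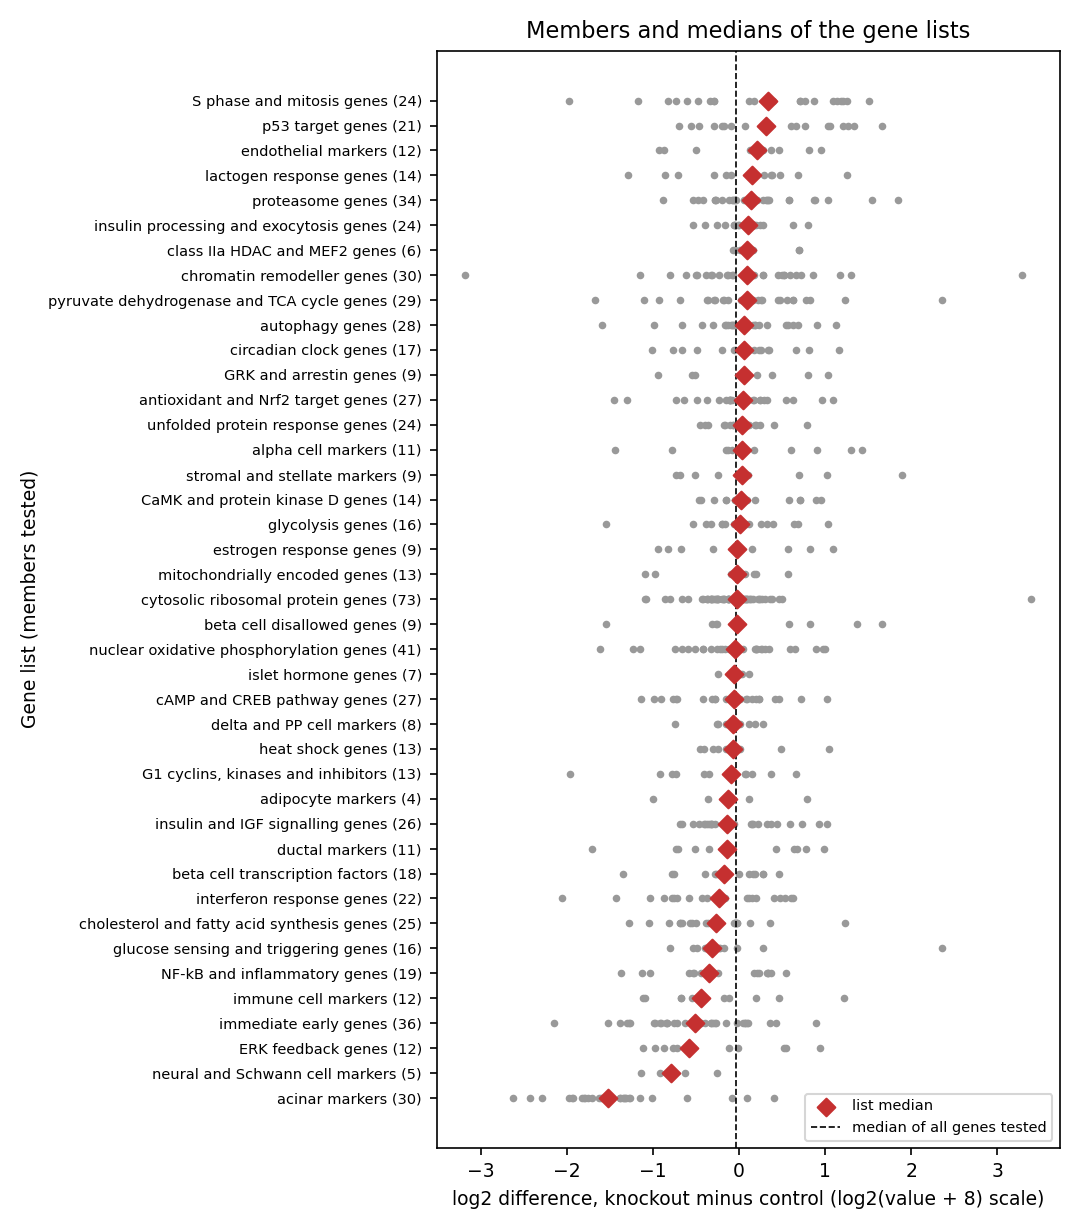
Log2 difference between 5 knockouts and 3 controls for each tested member (grey points) of the 41 gene lists, with the list median as a diamond and the median of all genes tested (-0.04) as a dashed line. The acinar markers lie lowest (-1.52), the S phase and mitosis genes highest (0.33), and most of the other medians lie close to that line.

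Several leading genes by p were listed at 0 or at low values in most libraries of 1 group. Anxa7, a calcium-dependent membrane-fusion protein encoded on chromosome 14 (20455260 to 20480133 in GRCm38), had 340.1, 416.9 and 314.5 in the controls and 0.0, 0.0, 6.2, 34.8 and 20.2 in the knockouts. Ccdc73, a coiled-coil protein gene on chromosome 2 (104867805 to 105017904), had 311.3, 186.0 and 341.7 against 26.9, 17.7, 3.8, 6.9 and 3.6. For these genes the controls left out sat with the knockouts, at 0.0 and 0.0 for Anxa7 and at 5.0 and 3.3 for Ccdc73. The adjusted p by limma was 0.215 for both genes, and for Anxa7 it reached 0.0418 with library quality weights and 0.0474 with a pseudocount of 32. Atxn1l, on chromosome 8 (109726451 to 109737739), was the reverse: it was listed at 0 in all 3 controls, at 134.9, 233.3, 21.1, 218.8 and 267.0 in the knockouts, and at 194.4 and 75.7 in the controls left out. Atxn1l encodes a relative of ataxin 1 that binds the repressor Capicua.

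In Cpsf1 and Mlh3 one control left out sat with the knockouts and the other with the controls. Cpsf1, a subunit of the mRNA cleavage complex, had 106.4, 98.1 and 101.1 in the controls and was listed at 0 in the knockouts except knockout 2 (14.0), with 0.0 in control 2 but 103.8 in control 5. Mlh3, a mismatch repair gene, had 113.9, 168.4 and 160.0 and was listed at 0 in the knockouts except knockout 3 (54.5), with 167.6 in control 2 but 0.0 in control 5. Nfatc1, a transcription factor driven by calcium and calcineurin, had 0.0, 12 and 8.4 against 211.7, 229.5, 53.1, 65.1 and 162.5, with 200.4 and 42.7 in the controls left out. Whamm, Herc4, Cd151, Rpl10a and Chd9 also had higher values in every knockout than in most controls, each with at least 1 control listed at 0. In Herc4 control 3 (231.7) lay above knockouts 4 and 5 (197.6 and 204.7).

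Leading genes at well-measured levels differed less. Nav2, a neuron navigator gene of the cytoskeleton, had 1666, 1795 and 1475 in the controls and 2705, 2402, 3363, 2589 and 2803 in the knockouts, a log2 difference of 0.75 ± 0.19 (SE, unadjusted p = 0.000895 by limma). Zdhhc2, a palmitoyltransferase, had 2183, 1525 and 2223 against 889.9, 1202, 861.3, 1046 and 1150, a log2 difference of -0.93 ± 0.23 (SE). Neither overlapped between the groups. The controls left out had 1950 and 2282 for Nav2, between the groups, and 950.9 and 709.4 for Zdhhc2, within or below the knockouts. With all 5 controls the difference was 0.60 for Nav2 and -0.43 for Zdhhc2. Aldh18a1, which makes the precursor of proline, had 899.3, 997.5 and 801.0 against 277.8, 218.7, 471.1, 470.4 and 290.1, a log2 difference of -1.42 ± 0.34 (SE). For Aldh18a1 too all knockouts lay below all controls, and left-out control 2 (286.0) lay among the knockouts while control 5 (900.6) lay among the controls.

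Bend5, Hmgxb4 and Syne2 were higher in all 5 knockouts than in the 3 controls, with log2 differences of 2.81 ± 0.62, 2.37 ± 0.54 and 1.32 ± 0.35 (SE). Syne2 encodes nesprin 2, which links the nucleus to the cytoskeleton. The pseudogene Ppp4r1l-ps had 439.0, 172.9 and 94.4 against 768.5, 682.4, 588.9, 1103 and 526.4, and its reads may be shared with its parent gene. Among the genes with the largest differences at mean values over 200 in both groups were also Aftph, Fnbp4 and Wasl, at 1.15, 1.09 and 1.04, and Cep162 and Scnn1b, at -1.74 and -2.09. In Cep162 control 1 (3157) stood far above controls 3 and 4 (825.9 and 533.9), and in Scnn1b the size rests on knockout 3, listed at 0, since it was -1.07 without it.

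**Figure D5:**
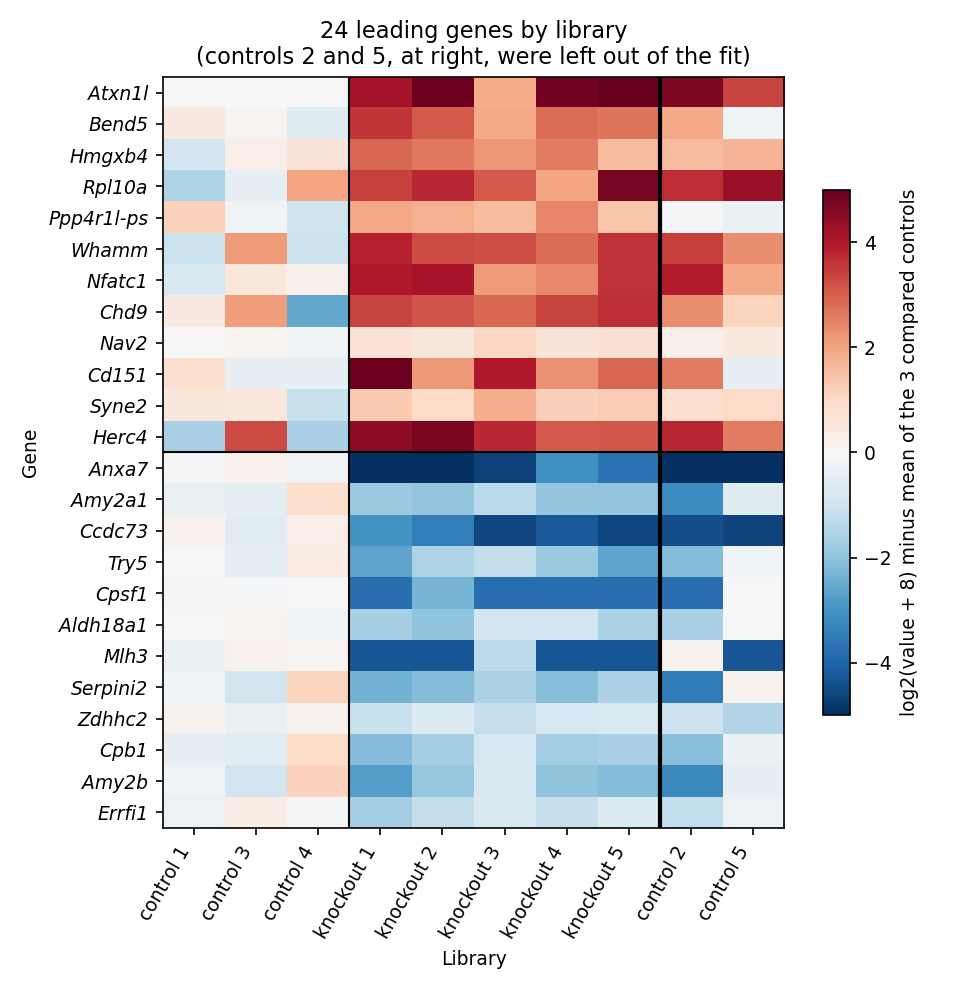
Heat map of log2(value + 8) minus the mean of the 3 compared controls for the 12 leading genes in each direction (rows) in each library (columns), with the 2 controls left out at the right of the thick line. Control 2 resembles the knockouts for 21 of the 24 genes and control 5 for 12 of them, by their side of the midpoint between the group means.

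The controls left out took no part in the fit, so their values show where libraries labelled control but high in Esr1 fall. Their place was taken as the side of the midpoint between the 2 group means on the log2 scale. Over all genes tested, control 2 lay on the knockout side for 49.2% and control 5 for 49.9%. Among the 440 genes whose groups did not overlap (3.44% of those tested), control 2 lay on the knockout side for 248 (56.4%) and control 5 for 215 (48.9%). Among the 24 leading genes by p the counts were 21 for control 2 and 12 for control 5. By direction, control 5 was on the knockout side for 8 of the 12 higher genes and 4 of the 12 lower genes, and control 2 for 10 and 11. Of the 30 acinar markers, control 2 was on the knockout side for 29 and control 5 for 2. These are counts over genes of single libraries, with no test.

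Of the other cell types that an islet preparation can hold, the markers took small shares of each library. Ductal markers took 0.0966% to 0.168%, with 6 of 11 tested genes lower and a median of -0.14. Of them, the keratin gene Krt8, the claudin gene Cldn4 and the trefoil factor gene Tff2 were lower at an unadjusted p under 0.05 (2.37% of all genes). Krt8, which acinar cells also express, had log2 difference -0.52 ± 0.16 (SE). Endothelial markers had a median of 0.21 over 12 genes and stromal markers 0.03 over 9. Immune cell markers had a median of -0.44 over 12 genes, or -0.05 with all 5 controls, neural and Schwann cell markers -0.79 over 5 of 10 listed, and adipocyte markers -0.13 over 4. Each of these 5 lists took at most 0.0633% of any of the 8 libraries.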

How the data were processed

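Islet RNA was depleted of ribosomal RNA, made into stranded, randomly primed libraries and sequenced in paired reads, per the labels' protocols. Per the submitters' processing notes, the tools were STAR 2.4.0.1, HTSeq and DESeq2, in roles not stated; no genome build is given in the sources used here. What was deposited is a signal, the authors' normalized counts per gene, which are not whole reads: 26.0% to 37.0% of a compared library's values above 0 were whole multiples of its commonest low value (tolerance 0.01), so limma 3.58.1 in R 4.3.3 was used and no count model. The authors' deposited table also holds their own log2 fold changes, test scores and p-values over all 10 libraries, which were not used in the tests. Grk5 has a log2 fold change of -0.60 and an adjusted p of 0.953 in the authors' deposited table.

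Of the named rows, 17945 in number, 23 carry names that look like dates. A row without a name (at most 0.0251% of a library) was left out, as was Esr1. Groups come from the genotype label and replicate numbers from sample order. The fit used log2(value + 8), a mean-variance trend, robust variances and Benjamini-Hochberg adjustment at 0.05, and was tested on simulated data. The members and the 41 gene lists were chosen with earlier results of these data known, and no list was tested as a set.

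Genes are named by rule: a preset group, the 12 smallest p in each direction with an official symbol and a mean of at least 100 in 1 group, the 8 largest non-overlapping differences in each direction with means of at least 200 in both, and up to 3 members per list. Junb, Ier2, Slc30a8, Dusp1, Egr1, Atf3, Arid4a, Arid5a, Chd1 and Chd8 were named after their values were seen. Promoters are from RefSeq (GRCm38.p6), of which 9355 matched genes tested by symbol, and gene positions from GENCODE M21 on GRCm38. Figures were made in Python 3.11.15 with matplotlib 3.10.9. The 18 alternatives covered pseudocounts, filters, scalings, variance estimates, library weights, an acinar covariate, all 5 controls and the omission of each library.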

Additional observations from a re-analysis of the deposited data

Results flagged for a closer look

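Esr1 was high in both controls left out, 2495 in control 2 and 773.5 in control 5, against 0.0 to 10.5 in the 3 controls compared; these values chose the controls and were not tested. Among 110 sets of 5 knockout values checked, 9 had a library that stood far from the other 4. The limit used gives about 1 in 20 by chance for normally spread values in unrelated sets. Some sets here are related, such as Amy2a1 and Try4, so that rate is no reference for these 9. Knockout 3 stood apart in 4 of the 9. It was high in Amy2a1 (6590, others 4260 to 4604), Try4 (5089, others 2375 to 2869) and Mlh3 (54.5, others 0.0), and low in Srf (580.6, others 698.7 to 732.3). Ins2 was 803858 in knockout 5 (others 588745 to 599965) and the class II gene H2-Ab1 was 268.2 in knockout 4 (others 60.7 to 93.4). Ier2 was 10.6 in the shallowest library, knockout 1 (others 202.3 to 320.8). In knockout 2, Cpsf1 was 14.0 (others 0.0) and Chd8 was 401.3 (others 915.4 to 1276.5). For Mlh3 and Cpsf1 the other 4 values were 0.0, so any value above that would have been flagged.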

How the results depend on the processing

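Across 18 alternatives, 88 of the 96 named genes with a log2 difference kept their direction in every one. The number of genes past the adjusted threshold by limma was 0 with all 8 libraries, 1 with a pseudocount of 32 and 1 with library quality weights (Anxa7 in both), and 0 to 3 with single libraries left out, where the genes were Agtrap without control 1, Amy2a1, Chd9 and Herc4 without control 3, Amy2a1, Qser1 and Zc3h13 without control 4 and Try5 without knockout 3. The number of genes at an unadjusted p under 0.05 was 547, or 283 with the acinar covariate. The number of genes whose groups do not overlap was 440, against 107 with all 5 controls and 685 to 1075 with single libraries left out, where fewer libraries overlap less often by construction. Grk5 ran from -1.49 (acinar covariate) to -0.55 (all 5 controls).

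With the acinar covariate the direction turned for Ins2 (0.02), Gcg (-0.04), Pdx1 (0.02), Hdac5 (-0.06), Mef2d (0.11), Ccnd2 (0.02) and Tff2 (0.33). With all 5 controls it turned for Gcg (-0.12) and Hdac5 (-0.11), and Hdac5 was also 0.00 with equal upper quartiles and -0.06 with quality weights. With single libraries left out, Gcg ran from -0.05 (without knockout 4) to 0.11, Hdac5 from -0.13 (without knockout 2) to 0.10, Mef2d from -0.24 to 0.08 (without knockout 1) and Mki67 from -0.35 (without control 3) to 1.42. The cause was not tested. No paired analysis was possible because no replicate number is among the labels. The depth of knockouts 1 and 4, about 2072840 and 2715746 reads by the estimate above, limits genes with low values.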

Other observations

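Chromatin remodeller genes held members with higher and with lower values. Of 30 tested, 4 were higher (Smarca2, Chd9, Arid4a and Chd8) and 3 lower (Smarcad1, Arid5a and Chd1) at an unadjusted p under 0.05 by limma, where 1.91% of all genes were higher and 2.37% lower, with a list median of 0.09. Smarca2, an ATPase of the SWI/SNF complex, had 1120, 1350 and 1149 in controls 1, 3 and 4 and 1962, 2162, 1805, 1753 and 2255 in knockouts 1 to 5. All knockouts lay above all controls, at a log2 difference of 0.71 ± 0.20 (SE, adjusted p = 0.848 by limma). Arid5a was 670 ± 64.1 (SD, n = 3) against 308 ± 87.3 (SD, n = 5), also without overlap. Smarcad1 had 92.0, 316.9 and 73.5 against 0.0, 26.5, 37.4, 0.0 and 0.0.

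Proteasome genes had 20 of 34 members higher, a median of 0.14 and 3 members higher at an unadjusted p under 0.05, Psmd13, Psma4 and Psma5 (1.91% of all genes). Psmd13, a lid subunit, had 75.3, 128.5 and 152.8 in the controls and 1034, 275.7, 191.6, 374.2 and 249.4 in the knockouts, with knockout 1 far above the rest. Of 28 autophagy genes, Becn1, which starts the autophagosome membrane, was the only one at that level, a share near the 4.27% of all genes, with 254.0, 223.7 and 446.6 against 527.2, 1078, 514.7, 794.1 and 513.4. Dlat, the acetyltransferase subunit of pyruvate dehydrogenase, had 490.6, 319.8 and 236.8 against 166.0, 94.0, 100.1, 79.0 and 75.0, the only member at that level of 29 pyruvate dehydrogenase and TCA cycle genes, again near the share of all genes. The lactogen response list had 8 of 14 members higher and 0 at that level. In that list, Cish and Socs3, feedback inhibitors of STAT signalling, had log2 differences of -1.30 ± 0.65 and -0.87 ± 0.42 (SE), and control 3 stood high in both (413.7 and 1510). Cxcl10, a chemokine induced by interferon, had 24.3, 49.4 and 43.1 against 0.0, 0.0, 4.2, 0.0 and 16.7, with 118.1 and 2.2 in the controls left out.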
